A study of Drosophila melanogaster with 12 samples.

Results

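The telomeric retrotransposons HeT-A, TART and TAHRE were followed for H3K9me3 and H3K36me3 in Drosophila melanogaster S2 cells. They were taken as every row that the authors' tables type as a telomeric retrotransposon. This gave 4 rows, HETA (HeT-A), TAHRE, TART and TART_B1, of the 199 rows common to both tables, with 203 rows in the H3K9me3 table and 199 in the H3K36me3 table. All 4 were present in both tables, no filter on low values was applied, and each had 1 mean enrichment per mark and treatment, 16 values in all.

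S2 is an established line of embryonic origin, grown here at 25 °C in Schneider medium with 10% serum. The cells received double-stranded RNA for 5 days with a DOTAP transfection reagent, against either GFP (the control, labelled GFPRNAi) or KDM4A (labelled KDM4ARNAi). Fixation with 1% paraformaldehyde lasted 10 minutes, the Bioruptor ran for 30 cycles, and each ChIP used 5 µg of antibody. The labels list 12 libraries in 6 groups of 2, which are the H3K9me3 ChIP, the H3K36me3 ChIP and the input of each treatment. The deposited tables hold 1 mean per mark and treatment and do not say which libraries entered it, so no value has an error, no difference has a replicate check and no test was possible. The depth behind the values is unknown, the tables hold repeats only, and neither the level of KDM4A nor the identity of the cells could be checked in them.

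Drosophila has no telomerase. Its chromosome ends are instead extended by non-LTR retrotransposons of the jockey clade, which attach head to tail at the end of the DNA and form long arrays. HeT-A encodes a Gag protein that directs it to telomeres but no reverse transcriptase, TAHRE is related to HeT-A and does encode one, and TART encodes both Gag and reverse transcriptase. H3K9me3 is the mark bound by heterochromatin protein HP1a, which also takes part in capping fly telomeres. H3K36me3 is placed along transcribed bodies by Set2, which travels with elongating RNA polymerase II. KDM4A is a Jumonji-domain demethylase that binds HP1a and removes methyl groups from H3K36, and its family also holds enzymes that act on H3K9me3.

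The 4 telomeric rows carried little H3K9me3 and much H3K36me3 in control cells. Enrichment is a linear ratio whose denominator is not stated, so a value of 1 is used only as a round reference point. With GFP RNAi the H3K9me3 enrichment of HeT-A was 0.798, that of TAHRE 0.939, that of TART 0.774 and that of TART_B1 0.868. All 4 lay under 1, between 0.333 and 0.404 times the median of the H3K9me3 table (2.32). They were among 31 of all 203 rows that lay under 1. The H3K36me3 enrichment in the same cells was 1.60 for HeT-A, 2.07 for TAHRE, 3.40 for TART and 3.56 for TART_B1. All 4 lay above 1, between 1.78 and 3.96 times the median of the H3K36me3 table (0.898). A value above 1 was common in that table, with 80 of all 199 rows above 1 and 119 under it. Above 1 were 16 of 21 DNA transposons and 12 of 24 jockey-clade rows.

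**Figure D1:**
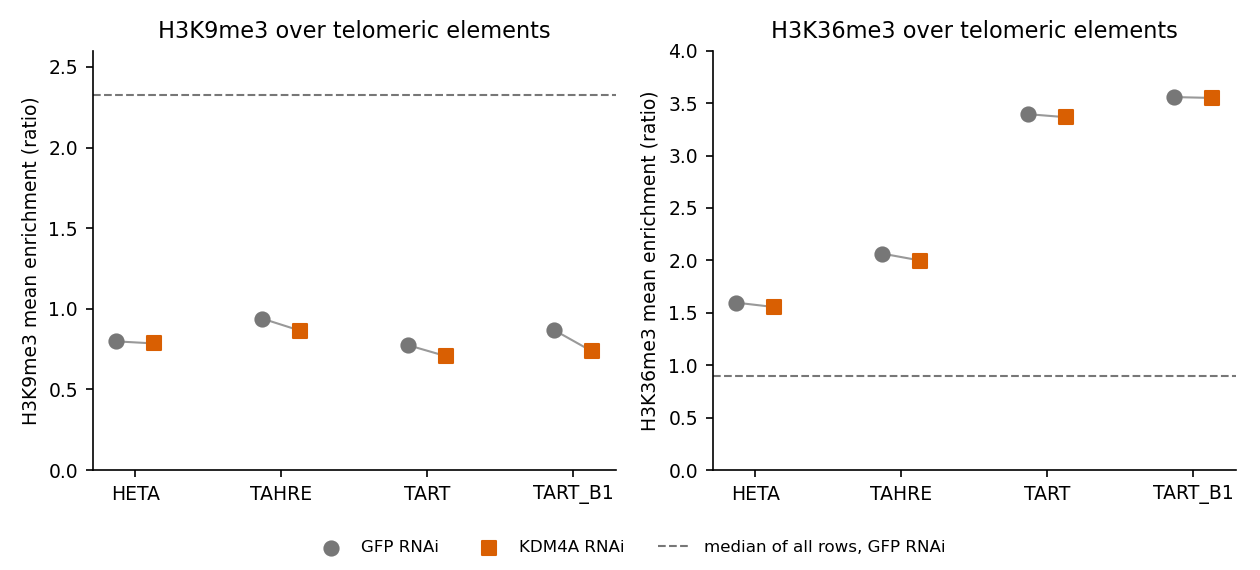
Mean enrichment (ratio) of H3K9me3, left, and H3K36me3, right, for each telomeric row, with GFP RNAi as grey circles and KDM4A RNAi as orange squares; the dashed line is the median of all rows in GFP RNAi cells. Each point is 1 deposited mean with no error; every H3K9me3 point lies under the line and every H3K36me3 point above it.

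After KDM4A RNAi the levels kept this arrangement. H3K9me3 enrichment was then 0.785 at HeT-A, 0.864 at TAHRE, 0.706 at TART and 0.736 at TART_B1. H3K36me3 enrichment was 1.56 at HeT-A, 2.00 at TAHRE, 3.37 at TART and 3.55 at TART_B1. The plot of the members' values shows that the step from one treatment to the other was small beside the distance of each row from the table median.

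As deposited, the 4 rows lay further apart in fold terms for H3K36me3 than for H3K9me3. Their H3K9me3 values were low in their table and their H3K36me3 values high, so the 2 spreads are not on equal terms. For H3K36me3 the order was TART_B1, TART, TAHRE and HeT-A in both treatments, and the highest row was 2.23 times the lowest with GFP RNAi and 2.28 times with KDM4A RNAi. TART had 2.13 times the H3K36me3 enrichment of HeT-A in control cells and TAHRE 1.29 times. For H3K9me3 the highest row was only 1.21 times the lowest with GFP RNAi and 1.22 times with KDM4A RNAi. Its order was TAHRE, TART_B1, HeT-A and TART with GFP RNAi, and HeT-A and TART_B1 changed places with KDM4A RNAi. Without an error on any mean, neighbours in either order cannot be called different.

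TART and TART_B1 were the closest pair. The tables do not explain the name TART_B1, which is read here as a second TART row from its name alone. TART_B1 was 1.05 times TART in H3K36me3 in either treatment, and 1.12 times in H3K9me3 with GFP RNAi against 1.04 times with KDM4A RNAi. How reads that match several rows were assigned is not given in the sources used here. Whether related rows share reads was not tested, and the 4 rows are not counted as independent measurements.

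Within the H3K36me3 table the telomeric rows stood near the top. With GFP RNAi TART_B1 ranked 1, TART 2, TAHRE 12 and HeT-A 27 of 199. The rows just below TART were FW3_DM, a jockey-clade element at 3.02, and GYPSY5_I, the internal part of a gypsy-family LTR retrotransposon at 2.86. TAHRE lay between MARINER2_DM (2.17), a DNA transposon, and Bica_LTR (2.01), a terminal repeat. HeT-A lay between INVADER5_I (1.60) and TRANSIB3 (1.59). With KDM4A RNAi the ranks were 1 for TART_B1, 3 for TART, 13 for TAHRE and 25 for HeT-A. GYPSY5_I (3.37) then stood at rank 2, level with TART to 3 digits, and Bica_LTR (2.11) above TAHRE.

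Within the H3K9me3 table the same rows stood near the bottom. TAHRE ranked 177, TART_B1 184, HeT-A 186 and TART 187 of 203 with GFP RNAi, and 179, 186, 184 and 188 with KDM4A RNAi. Their nearest neighbours in level outside the members were LTR retrotransposons and satellites. TART was level with the AAACAC satellite (0.774) and just above MDG1_I (0.759), HeT-A lay under TRANSPAC_LTR (0.818), TART_B1 under DIVER_LTR (0.871) and TAHRE under COPIA_DM_I (0.944).

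The combination of the marks set the telomeric rows apart from most repeats. In GFP RNAi cells 5 of the 199 common rows, 2.51%, had H3K9me3 under 1 together with H3K36me3 over 1, and 4 of these 5 were the telomeric rows. The other was BLOOD_I, the internal part of the LTR retrotransposon blood, at 0.882 for H3K9me3 and 1.39 for H3K36me3. Under 1 in H3K9me3 lay 31 rows in all, which means that most rows with little H3K9me3 did not have H3K36me3 above 1. Tandem repeats (satellites) made up 9 of the 31, and all 14 tandem repeats had H3K36me3 under 1. H3K36me3 was under 1 at 119 of all 199 rows. These counts are descriptions, since the rows are not replicates.

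**Figure D2:**
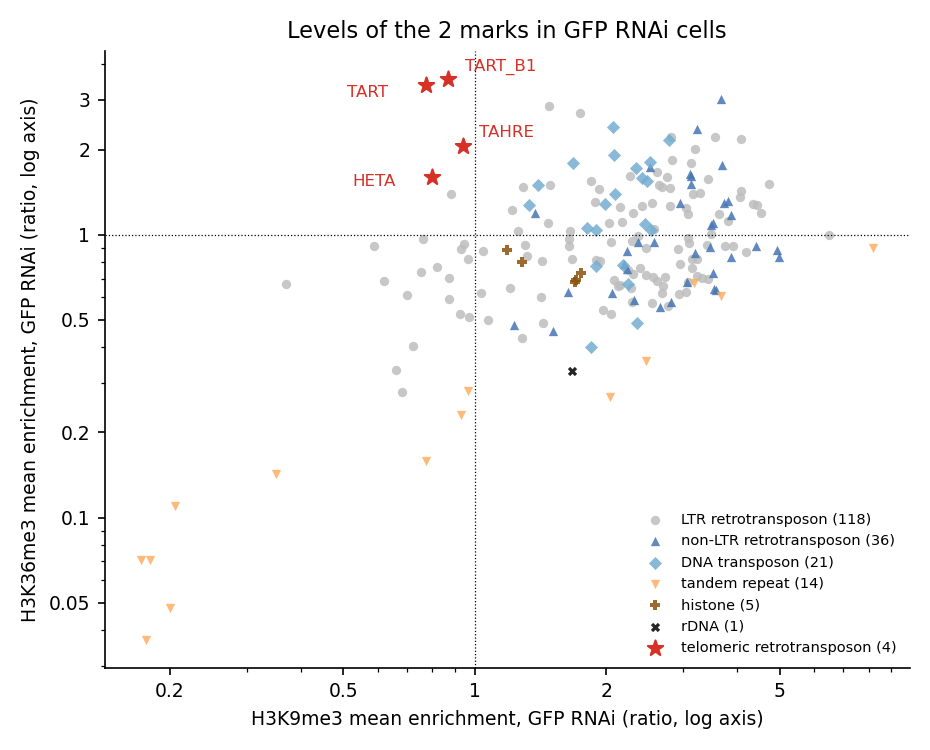
H3K9me3 (horizontal, log axis) against H3K36me3 (vertical, log axis) mean enrichment in GFP RNAi cells, 1 point per row common to both tables, shaped by the type the authors gave; dotted lines mark an enrichment of 1. The 4 telomeric rows, red stars, lie at the upper left, where the only other row is BLOOD_I.

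Since HeT-A, TART and TAHRE belong to the jockey clade, the closest comparison is with the other non-LTR retrotransposons. The tables hold 36 of these, of which 24 carry names of jockey-clade elements (Doc, F, G, BS, Jockey and Helena families). The H3K9me3 values of the telomeric rows did not overlap theirs in either treatment. This was not particular to non-LTR rows. TAHRE, the highest telomeric row, had 86.7% of all 203 rows above it with GFP RNAi and 87.7% with KDM4A RNAi. The lowest DNA transposon row was at 1.33 and the lowest histone row at 1.19 with GFP RNAi. With GFP RNAi the 36 ran from 1.23 at Jockey to 4.99 at G7_DM with a median of 3.13, which is 3.76 times the telomeric median of 0.833. With KDM4A RNAi they ran from 1.17 at I_DM to 5.50 at DMRT1A, and their median of 3.29 was 4.32 times the telomeric median of 0.761.

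For H3K36me3 the telomeric rows and their relatives overlapped. The 36 other non-LTR rows ran from 0.457 at ALUII_DM to 3.02 at FW3_DM with GFP RNAi, with a median of 0.892 against 2.73 for the telomeric rows. All 36 lay under TART and TART_B1, but 6 lay above HeT-A. These 6 were FW3_DM, JOCKEY2, G5A_DM, G4_DM, DOC4_DM and FW2_DM, all of the jockey clade. FW3_DM and JOCKEY2 (2.36) also lay above TAHRE. Each of the 6 had H3K9me3 well above the telomeric level, from 2.53 at G4_DM to 3.69 at G5A_DM.

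**Figure D3:**
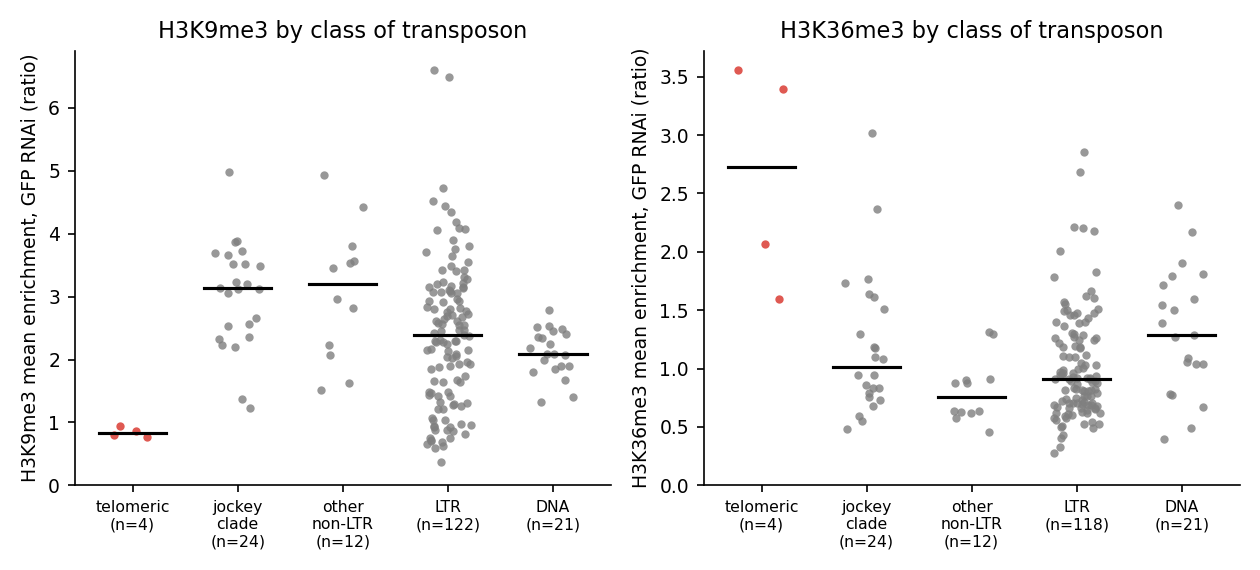
Mean enrichment (ratio) in GFP RNAi cells for H3K9me3, left, and H3K36me3, right, by class of transposon, 1 point per row, with a bar at the median of each class. The telomeric rows (red) lie under every non-LTR row in H3K9me3, while in H3K36me3 HeT-A and TAHRE lie within the range of the jockey clade (24 rows).

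Dividing the H3K36me3 enrichment of a row by its H3K9me3 enrichment gives a ratio whose rank does not depend on how the tables were scaled to each other. With GFP RNAi this ratio was 4.39 for TART, 4.10 for TART_B1, 2.20 for TAHRE and 2.00 for HeT-A. These were the 4 highest of 199 rows, whose median was 0.411. The next was GYPSY5_I at 1.93. A ratio above 1 was uncommon, at 16 of all 199 rows, the 4 telomeric rows included. Unlike the rank, a cut at 1 depends on how the tables were scaled to each other. None of the 36 other non-LTR rows was above 1, and the highest of them was DOC6_DM at 0.863.

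With KDM4A RNAi the ratio was 4.82 for TART_B1, 4.77 for TART, 2.31 for TAHRE and 1.98 for HeT-A. The first 3 held ranks 1 to 3, and HeT-A ranked 5, behind Gypsy1-LTR_DM at 2.22. That terminal repeat has its place through very low H3K9me3 (0.302) and not through H3K36me3 (0.671). The median of all rows was 0.399. If the same input served as denominator for both marks it would cancel from this ratio, but the denominator is not stated.

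**Figure D4:**
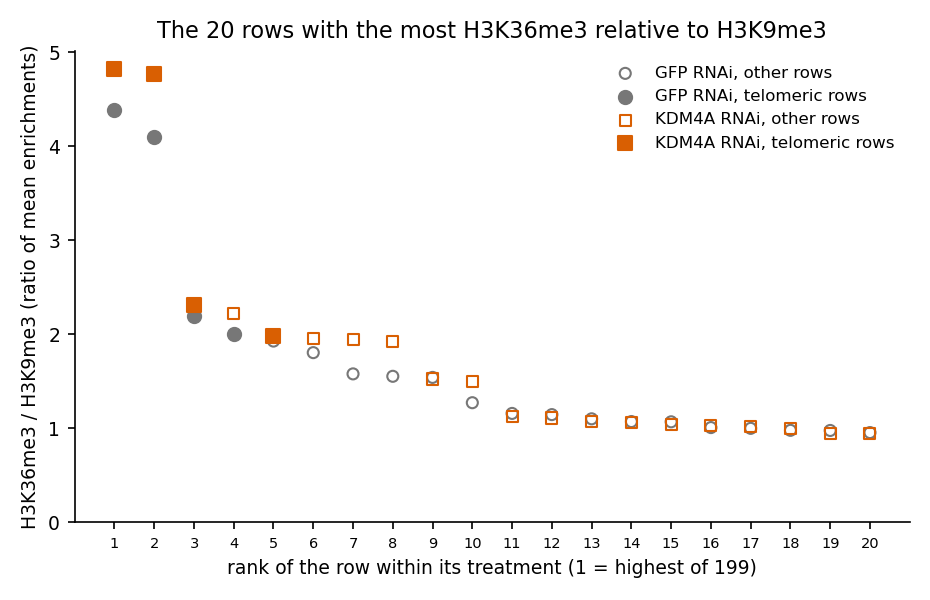
H3K36me3 enrichment divided by H3K9me3 enrichment for the 20 highest rows of each treatment, against rank among 199 rows; filled symbols are telomeric rows. TART and TART_B1 lie at 4.10 to 4.82, apart from all other rows, while TAHRE and HeT-A, at 1.98 to 2.31, adjoin the rows that follow.

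Over the 4 log2 values, the rows most like TART and TART_B1 were mostly other members, while those most like HeT-A and TAHRE were mostly not. TART and TART_B1 were each other's nearest row, with a Euclidean distance of 0.20 log2 units, and TAHRE was next for both, at 1.11 and 1.17. For TAHRE the nearest row was HeT-A at 0.59, then BLOOD_I at 0.82 and DIVER_I at 1.02. For HeT-A the nearest row was BLOOD_I at 0.32, closer than TAHRE at 0.59, followed by the DNA transposon POGON1 at 1.00. The nearest row to either TART row outside the telomeric rows was GYPSY5_I, at 1.61 from TART and 1.48 from TART_B1. Each mark gives 2 mean columns, so these distances describe the tables and carry no error.

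The comparison of treatments asked whether depletion of KDM4A altered the marks over these elements. H3K9me3 was lower with KDM4A RNAi than with GFP RNAi at all 4 rows, by 1.63% at HeT-A, 7.99% at TAHRE, 8.79% at TART and 15.2% at TART_B1. The log2 ratios of KDM4A RNAi to GFP RNAi were -0.02, -0.12, -0.13 and -0.24 in that order. Their median was -0.13, beside 0.04 over all 203 rows and 0.07 over the 36 other non-LTR rows. No telomeric row reached a difference of 1.5-fold, which 2.96% of all rows did. Of all rows 35.5% were lower with KDM4A RNAi, and 44.3% after each column was divided by its median. All 4 telomeric rows were also lower in that setting, but it lowers every log2 ratio by 0.03 and could not have raised them. Each of the 4 scalings tried shifts all rows by 1 constant, which is large beside the HeT-A log2 ratio and brought it to between -0.05 and -0.07.

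Other rows with little of the mark differed in both directions. Among the 31 rows with H3K9me3 under 1 in GFP RNAi cells, which include the 4 telomeric rows, 71.0% were lower with KDM4A RNAi, with a median log2 ratio of -0.11. Outside the telomeric rows 18 of 27 were lower. Of the 10 rows nearest in level to a telomeric row, 4 were lower and 6 higher. TIRANT_I, 2 rows above TAHRE, had 0.966 and 0.844, and MDG1_I, just under TART, had 0.759 and 0.623. The largest difference of the 10 was at the AAACAC satellite, level with TART, which had 0.774 and 0.28. In contrast DM412_LTR, 2 rows above TART_B1, had 0.875 and 1.12, and STALKER2_LTR, just under TAHRE, had 0.931 and 0.998. TART_B1 had the 21st lowest log2 ratio of 203 rows and HeT-A the 61st.

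As deposited, the H3K9me3 difference was larger at TART_B1 than at TART, but without an error the sizes cannot be called different. KDM4A RNAi minus GFP RNAi was -0.068 enrichment units at TART and -0.132 at TART_B1. HeT-A, at -0.013, had the smallest difference of the 4, and TAHRE was at -0.075. Rounding of the deposited values to 3 decimals leaves the HeT-A log2 ratio between -0.026 and -0.022, so the sign is not set by rounding, but no error between libraries is known.

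H3K36me3 differed little between treatments at the telomeric rows. As deposited it was lower with KDM4A RNAi by 2.63% at HeT-A, 3.20% at TAHRE, 0.854% at TART and 0.225% at TART_B1. The log2 ratios were -0.04, -0.05, -0.01 and -0.003, with a median of -0.03, beside -0.05 over all 199 rows and -0.05 over the other non-LTR rows. All 4 were lower, as were 65.3% of all rows. After each column was divided by its median all 4 were higher, by 0.04 to 0.09 log2 units, as were 62.3% of all rows, so no direction can be given. None reached 1.5-fold, which 2.51% of all rows did.

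The place of these H3K36me3 differences by size also depended on the scaling. As deposited the absolute log2 ratio of TART_B1 was the 7th smallest of 199, that of TART the 17th, that of HeT-A the 39th and that of TAHRE the 51st. After each column was divided by its median the places were 102 for TART_B1, 94 for TART, 77 for HeT-A and 60 for TAHRE, so the order among the 4 was turned over. Other rows high in the mark differed more or as little. With GFP RNAi and KDM4A RNAi respectively, FW3_DM had 3.02 and 2.62, GYPSY5_I 2.86 and 3.37, and JOCKEY2 2.36 and 2.75, whereas Bica_I, an LTR element near TAHRE in level, had 2.18 and 2.19. The comparisons for the 2 marks may share the same input libraries, of which the labels list 2 per treatment, so the differences of the marks are given side by side and not set against each other.

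**Figure D5:**
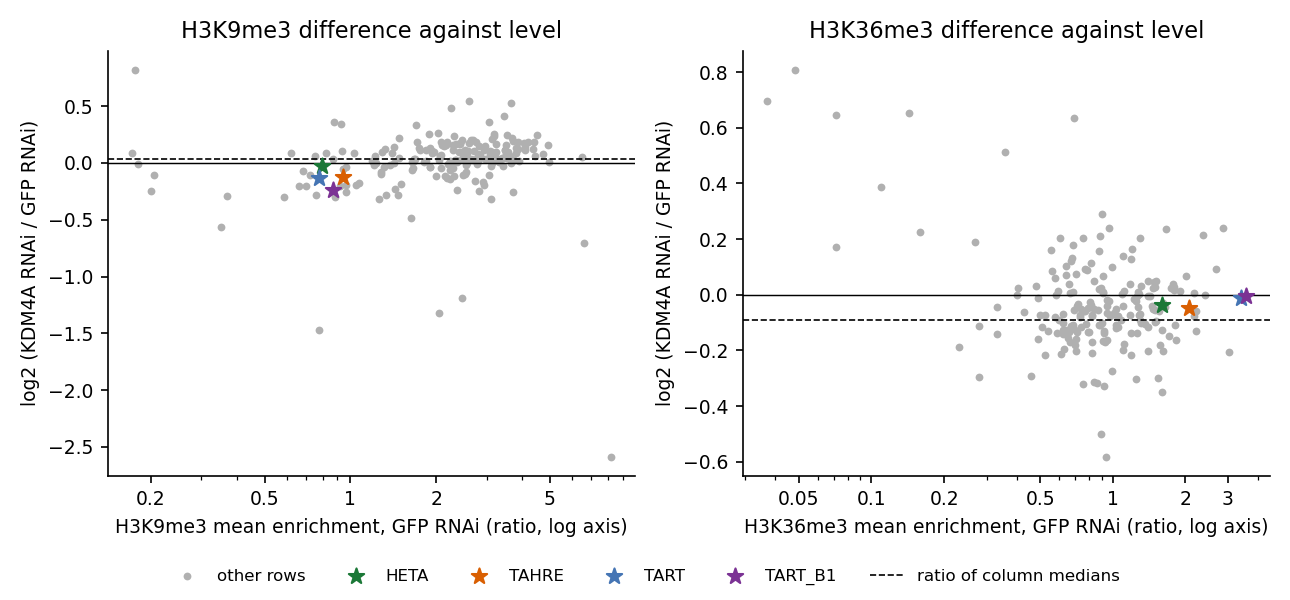
The log2 ratio of KDM4A RNAi to GFP RNAi (vertical) against the mean enrichment in GFP RNAi cells (horizontal, log axis) for H3K9me3, left, and H3K36me3, right, 1 point per row; stars are the telomeric rows and the dashed line is the log2 ratio of the column medians. For H3K9me3 the stars run from -0.24 to -0.02, among other rows of similar level; for H3K36me3 they lie between 0 and the dashed line.

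The tables give no coordinates or sequences for these elements, so no position in the genome and no sequence is printed. In a mean over all copies of a family, a uniform level and a mixture of marked and unmarked copies cannot be told apart. Copies at chromosome ends and any copies elsewhere are likewise pooled.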

How the data were processed

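H3K9me3 and H3K36me3 were measured by ChIP-seq in S2 cells after GFP or KDM4A RNAi. The deposited values are linear enrichment ratios, a mean per treatment per the file headers, given to 3 decimals. The submitters' processing notes name Bowtie and MACS2, with neither version nor role. Not given in the sources used here: genome build, repeat library, denominator, scaling for depth and handling of multiply matching reads. No count, input or per-library value was analysed.

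Log2 ratios, ranks, medians and distances were computed with Python 3.11.15 and pandas 2.3.3, with no pseudocount. Beforehand the code was run on GFP RNAi values with known changes imposed without noise. That run checks the arithmetic of ratios and ranks only and says nothing about the error of the means. Tandem repeats were matched between the tables after removal of an added word. The planned permutation test needs values per library, which the means do not give, so all comparisons are descriptions and no p-value is given. "Centred" columns were divided by their median. The named rows were the members, the 2 rows above and below each in GFP RNAi level, the 3 nearest rows over 4 log2 values, jockey-clade rows (including G5A_DM, and Jockey for the name LINEJ1) and any row above the highest member. The other rows named as examples (ALUII_DM, I_DM, DMRT1A and Gypsy1-LTR_DM) were chosen after their values were seen. The members and lists were chosen with earlier results of these data known.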

Additional observations from a re-analysis of the deposited data

How the results depend on the processing

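No paired analysis was possible because values per library were not analysed here, and for the same reason no library could be left out. The depth behind every value is unknown, and only rounding gives a known error. The median H3K9me3 log2 ratio of the telomeric rows (-0.126) was -0.057 with a pseudocount of 1, -0.157 after division by the median of all rows, -0.170 after division by that of the other transposons and -0.120 with both TART rows averaged, and the median linear difference was -0.0715. Subtracting the median log2 ratio of all rows or of the other transposons, settings chosen after seeing the data, gave -0.169 and -0.176. Over the 4 divided or subtracted settings HeT-A ran from -0.074 to -0.054, TAHRE from -0.170 to -0.151, TART from -0.183 to -0.163 and TART_B1 from -0.288 to -0.269. All 4 rows stayed lower under each of these settings that was run per row, but this follows from construction. A pseudocount or a linear difference cannot change the sign, and every constant subtracted was positive (0.031 to 0.050). These settings therefore do not test the direction.

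The median H3K36me3 log2 ratio (-0.025) was -0.017 with the pseudocount, -0.024 after division by the median of the other transposons and -0.038 with the TART rows averaged, with a linear difference of -0.0355. It was reversed to 0.064 after division by the median of all rows, and to 0.029 and 0.039 in the subtracted settings. In these 3 settings 0 of 4 rows were lower. The log2 ratio of HeT-A then became 0.051, 0.016 and 0.025. For TAHRE it was 0.043, 0.0072 and 0.017, for TART 0.077, 0.042 and 0.052, and for TART_B1 0.086, 0.051 and 0.061. Each setting subtracts 1 constant, so the reversal follows from its construction. The column medians of the other transposons (0.920 and 0.919) gave a constant of -0.002, while their median log2 ratio was -0.064.

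Of all rows at or above the median level, 17.6% were lower in H3K9me3 and 63.0% in H3K36me3. The median share of rows above a telomeric row, 90.6% in H3K9me3, was 93.4% among transposons and 93.8% among non-LTR and telomeric rows together. Both sets include the telomeric rows themselves. In H3K36me3 it was 3.02%, then 3.35% and 6.25%, and 3.52% with KDM4A RNAi. The difference of these shares over common rows (85.4 points) was 88.4 without tandem repeats and 86.2 with KDM4A RNAi. With the TART rows averaged the highest row was 1.18 times the lowest in H3K9me3 and 2.18 times in H3K36me3.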
